A study of Mus musculus with 35 samples.

Results

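The genes described here encode S100 proteins, annexins and galectins. They are 10 genes taken by symbol from a table of 19085: S100a4, S100a6, S100a10, S100a11, Anxa1, Anxa2, Anxa5, Anxa6, Lgals1 and Lgals3. Their transcripts were measured by Smart-seq2, a method that copies the polyadenylated RNA of single cells along its full length, in 35 mouse embryonic fibroblasts (MEFs) of strain C57Bl/6J, cultured connective tissue cells kept at 3% oxygen. Of these cells 21 held micronuclei, small bodies of chromatin that lie outside the main nucleus inside a membrane of their own, and 14 held none. Every cell in both groups had received 1 Gy of radiation, had been moved to a membrane dish 32 h later, and was stained with PicoGreen and cut out by laser at 48 h, so no group shows these genes without irradiation. The study asked how micronuclei relate to innate immunity through the DNA sensor cGAS. Each library is 1 cell, and no embryo, culture or plate is named. Each group therefore counts as 1 sample, so no p-value is given and no replicate checks the differences.

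S100 proteins are small proteins with EF-hand motifs that change shape on binding calcium and then grip other proteins. Annexins are calcium sensors of another build: when calcium rises they dock on membranes rich in acidic phospholipids, where they take part in vesicle traffic, in anchoring actin and in resealing torn membrane. The families work together, since S100A10 forms a complex with annexin A2 and S100A11 can bind annexin A1. Galectins are lectins that bind beta-galactoside sugars on glycoproteins, and galectin-1 is abundant in fibroblasts.

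In the GENCODE annotation of GRCm38 the S100 members and Anxa5 lie on chromosome 3. S100a4 (chr3:90603771-90606045, + strand) and S100a6 (chr3:90612882-90624181, +) sit in a cluster of S100 genes. S100a11 (chr3:93520488-93526287, +) and S100a10 (chr3:93555080-93564643, +) are neighbours further along, and Anxa5 (chr3:36448923-36475894, −) is far from them. Anxa1 is at chr19:20373428-20390944 (−), Anxa2 at chr9:69453620-69491795 (+) and Anxa6 at chr11:54979108-55033445 (−). Lgals1 is at chr15:78926725-78930465 (+) and Lgals3 at chr14:47367751-47386160 (+). All 10 are annotated as protein-coding, and the table gives their counts per gene.

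Promoter sequence is shown for genes that stood higher in cells with micronuclei by the rule of size given below (Anxa2, Anxa5, Lgals3) and for S100a6 and S100a11, which varied together most closely from cell to cell. It comes from the 250 bases before the transcript start in RefSeq (GRCm38.p6), where 7 of the 10 genes were matched, and is written 5′ to 3′ on the gene's strand. Only the longest stretch outside annotated exons is printed, which leaves none for Anxa1, whose 250 bases all lie in an exon of a longer Anxa1 transcript. Capitals mark matches to 6 motifs searched on both strands.
Anxa2 (chr9:69453433-69453619, +): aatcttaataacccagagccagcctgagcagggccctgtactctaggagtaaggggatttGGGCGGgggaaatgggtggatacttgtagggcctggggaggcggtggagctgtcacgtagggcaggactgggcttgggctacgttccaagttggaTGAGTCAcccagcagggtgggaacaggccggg
Anxa5 (chr3:36475895-36475936, −): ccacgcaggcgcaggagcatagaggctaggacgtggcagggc
Lgals3 (chr14:47373610-47373812, +): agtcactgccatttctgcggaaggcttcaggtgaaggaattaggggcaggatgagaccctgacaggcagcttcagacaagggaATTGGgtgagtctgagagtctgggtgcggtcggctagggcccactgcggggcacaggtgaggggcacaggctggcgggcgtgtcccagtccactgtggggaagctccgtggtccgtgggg
S100a6 (chr3:90612644-90612881, +): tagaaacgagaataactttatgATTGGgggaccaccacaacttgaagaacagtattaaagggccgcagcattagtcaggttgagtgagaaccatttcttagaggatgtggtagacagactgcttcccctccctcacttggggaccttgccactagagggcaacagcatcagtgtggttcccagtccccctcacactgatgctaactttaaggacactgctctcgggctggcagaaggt
S100a11 (chr3:93520246-93520487, +): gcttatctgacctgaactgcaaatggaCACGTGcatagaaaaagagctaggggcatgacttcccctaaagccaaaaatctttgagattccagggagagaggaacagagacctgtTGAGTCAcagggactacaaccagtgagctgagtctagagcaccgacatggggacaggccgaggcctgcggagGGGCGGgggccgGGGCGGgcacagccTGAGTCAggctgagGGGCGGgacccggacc

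The short Anxa5 stretch is the gap of 42 bases between Anxa5 and 1810062G17Rik, whose exons fill most of the 250 bases. Over the whole windows of 250 bases, Anxa2 held the letters of a TATA box (TATAAA) 17 to 12 bases before the start. It also held 3 GC boxes (GGGCGG) and an AP-1 site (TGANTCA) at 95 to 89. The 63 bases next to the start lie in an annotated Anxa2 exon. They include the TATAAA and the GC boxes at 48 to 43 and 24 to 19. S100a11 also held 3 GC boxes and had AP-1 letters at 136 to 130 and 38 to 32, with an E-box (CACGTG) at 223 to 218. Anxa1 held TATAAA at 32 to 27 and the letters of a TEAD site (CATTCC) at 236 to 231. Lgals3 held a GC box at 7 to 2 and a CCAAT box (CCAAT) at 167 to 163, and S100a6 a CCAAT box at 228 to 224, all on the opposite strand. The Lgals3 window lies before the RefSeq start but inside the annotated Lgals3 gene (chr14:47367751-47386160), so it is not upstream of the whole gene. The GC box of Lgals3 lies in an annotated Lgals3 exon. Anxa5 held no match to these letters, and no matches overlapped in these windows. Of 32536 mouse promoters of the same length, 12.3% held TATAAA, 33% GGGCGG, 33.8% CCAAT, 6.73% TGANTCA, 12.6% CATTCC and 6.04% CACGTG. G and C made up 46.0% of the Anxa1 window, 50.0% of S100a6, 58.8% of Anxa5, 60.0% of S100a11, 62.4% of Anxa2 and 66.0% of Lgals3, where the median promoter had 52.4%. These matches are letters in a sequence, and no binding was measured.

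The depth of the libraries varied widely within both groups. Reads on genes numbered 57514 to 1794113 per cell with micronuclei (median 281800) and 56766 to 2023111 per cell without (median 736715), and genes with a read 2391 to 8964 (median 6812) and 3861 to 8229 (median 6082). All 9 fibroblast markers, S100a4 being 1 of them, had reads in both groups. Markers of macrophages, 14 in all, summed to 0 to 16773 CPM (median 0) in cells with micronuclei and to 0 to 4.48 CPM (median 0) in cells without. The high value belongs to cell 10 with micronuclei, whose reads also held the fibroblast transcripts Col1a1 (2542 CPM) and Vim (2405 CPM). In that cell 12 of the 14 markers reached 5 reads, and Itgam and Mrc1 had 0. Ptprc and Csf1r, which define blood cells and macrophages, had 12 and 42 reads there and 0 reads in every cell without micronuclei. Most Csf1r reads, 320 of the 371 with micronuclei, were in cell 6, where no other marker had a read and the summed level was 1452 CPM.

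Levels are in CPM, a cell's reads of a gene after every library has been scaled to the same total. For a group, reads were summed over its cells. Intervals in parentheses are exact 95% Poisson intervals, which treat each read as independent. They cover the counting of reads only and leave out the spread between cells. The reads carry no molecular identifiers and copies of a molecule cannot be told apart, so the error in counting molecules is not covered. Where a log2 ratio is given it compares the summed CPM of cells with micronuclei with that of cells without, after adding 1 CPM to each. An equal-weight ratio, from the mean CPM per cell, is given beside it because deep cells weigh more in a sum. A gene was called measured when it reached 5 CPM over the cells together and 5 reads in 5 or more cells. All 10 members passed, as 8390 genes did in all. For 8 members each of the 35 cells had 5 reads or more, and Anxa6 and Lgals3 were the exceptions.

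The 10 genes took a median of 2.05% of a cell's reads with micronuclei (range 1.39 to 3.08%) and 1.87% without (1.18 to 2.31%). The annexin members held a median of 0.721% of reads with micronuclei (0.221 to 1.26%) and 0.402% without (0.213 to 0.703%). The S100 members held 0.625% and 0.612%, and the galectins 0.696% and 0.729%. The groups overlapped for all 3 families.

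**Figure D1:**
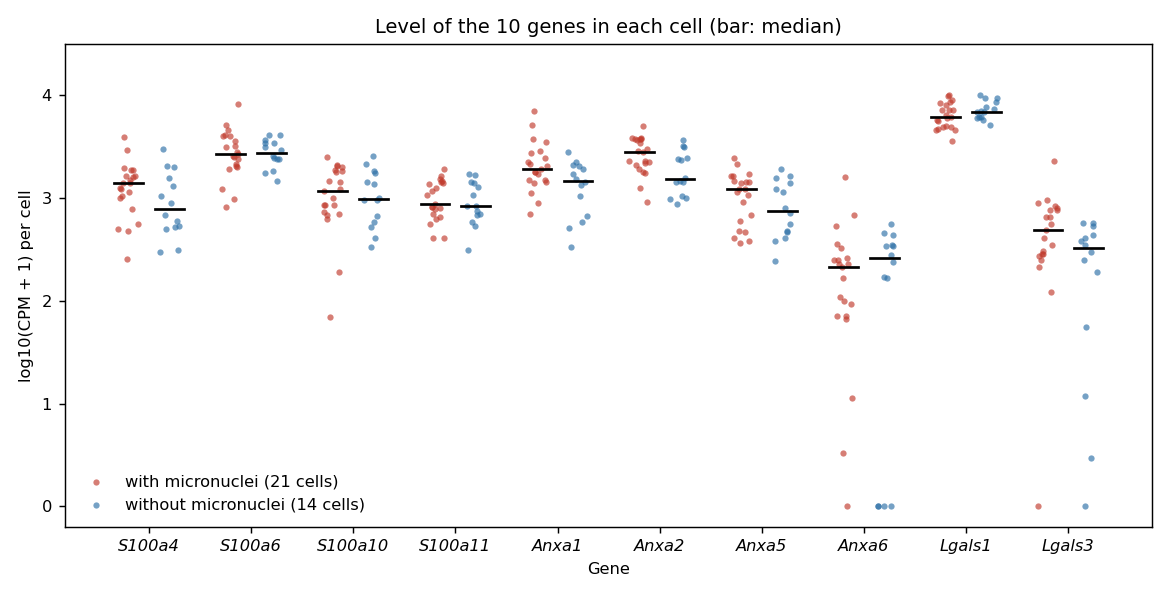
Level of each of the 10 genes in each cell, as log10(CPM + 1), for the 21 cells with micronuclei (red) and the 14 without (blue); each point is a cell and each bar a group's median. All genes overlap between the groups; the red bar lies farthest above the blue for Anxa2, S100a4 and Anxa5, followed by Lgals3, Anxa1, S100a10 and S100a11, and only Anxa6 and Lgals3 have cells at 0.

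To compare levels between genes, CPM was divided by the length of each gene's exons in kilobases. On this scale Lgals1 led with a median of 7662 CPM per kb over the 35 cells (quartiles 6313 and 9118). It was followed by S100a4 at 2111 (989.8 and 2792), S100a6 at 1962 (1529.8 and 2647) and S100a11 at 1643 (1343 and 2726), whose quartiles overlap. S100a10 stood at 834 CPM per kb (572 and 1509.8). Anxa5 at 646 (270.4 and 812), Anxa2 at 619.5 (407 and 893) and Anxa1 at 619.3 (475 and 771) did not differ beyond their spread. Lgals3 at 203 (134 and 329) and Anxa6 at 77.0 (23.9 and 117) closed the order. With the length of the longest transcript in place of all exons, S100a6 (3425 CPM per kb) passed S100a4 (2475), and Anxa1 (1077) and Anxa2 (1014) passed Anxa5 (663).

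S100a4, also called fibroblast-specific protein and known for binding non-muscle myosin, ranged from 254 to 3936 CPM in cells with micronuclei (median 1386.5) and from 300.3 to 3017 in cells without (median 794). The ranges overlapped nearly throughout, although 16 of 21 cells with micronuclei lay above the median of the others. Summed, the log2 ratio was 0.36, from 1144 CPM (1124 to 1164) with and 892 (875 to 909) without micronuclei. With equal weight it was 0.38, and leaving out single cells moved it between 0.23 and 0.56, the latter without cell 13 with micronuclei. It ran from 0.16 among thinned cells of 5000 to 8000 genes and 0.22 with TMM factors to 0.80 by median CPM per cell. Its exons overlap those of Gm42674 on the same strand over 302 bases (51.7% of their length), and that gene was listed with 10 reads against 23040 for S100a4.

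S100a6, or calcyclin, which binds annexins and the ubiquitin ligase adaptor Cacybp, showed no stable direction. Its level ran from 812 to 8155 CPM with micronuclei (median 2682) and from 1474 to 4116 without (median 2772). Cells with micronuclei were more spread, with 3 beyond the upper and 3 beyond the lower end of the other range. The summed log2 ratio was −0.12, from 2252 CPM (2224 to 2280.1) against 2451 (2422 to 2479), and the equal-weight ratio 0.10. Among the members S100a6 had the strongest Spearman correlation with total reads over 35 cells, −0.56 (−0.59 with micronuclei, −0.63 without). The part of depth in its ratio was not tested beyond the equal-weight value and a thinned value of −0.04.

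S100a10, the partner of annexin A2, ranged from 68.1 to 2499 CPM with micronuclei (median 1165) and from 332 to 2553 without (median 984). The cell at 68.1 was cell 6, which also had the fewest genes of all. The summed level was 1134 CPM (1114 to 1154) with and 1299.7 (1279 to 1321) without micronuclei. The log2 ratio was −0.20, but the equal-weight ratio was 0.07. S100a11, which binds annexin A1, stood at 404 to 1917 CPM (median 877) and 312 to 1707 CPM (median 837). Its log2 ratio was −0.04 in summed reads and 0.07 with equal weight, and the ranges lay almost on top of each other. S100a11 counts carry an added doubt, since 5 annotated copies match it by at least 90% over 100 bases or more. Of these copies 3 were in the table, with 385 reads against 19450 for S100a11.

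Annexin A1, a target of glucocorticoids that restrains inflammation and inhibits phospholipase, was higher in cells with micronuclei. Anxa1 ranged from 694 to 6964 CPM (median 1907) with micronuclei and from 335 to 2781 (median 1479) without. The highest cell without micronuclei was exceeded by 5 of 21 cells with them, and 4 of 14 cells without lay below the lowest cell with them. The summed level was 2513 CPM (2483 to 2542) with and 1382.5 (1361 to 1404) without micronuclei. That is a log2 ratio of 0.86, and 0.71 with equal weight. Cell 9 alone held 23.8% of the Anxa1 reads of its group, and without it the log2 ratio was 0.60. Compared by median CPM per cell in place of sums, the log2 ratio was 0.37.

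Anxa2, the partner of S100A10 and a receptor for plasminogen at the cell surface, was also higher. It ranged from 920.2 to 4976 CPM with micronuclei (median 2799) and from 877 to 3636 without (median 1517), so that 19 of 21 cells with micronuclei lay above the median of the others. Of them 7 lay above every cell without micronuclei. The log2 ratio was 0.63 from 2911 CPM (2879 to 2943) against 1875 (1850.0 to 1899.9). It was 0.53 with equal weight, and single leave-outs kept it between 0.50 and 0.83. With TMM scaling it was 0.49, just under the size asked for below. Anxa2 exons overlap Gm16144 on the opposite strand over 98 bases, 2.63% of their length.

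Anxa5, whose protein binds phosphatidylserine and is used to stain dying cells, ranged from 365 to 2456 CPM with micronuclei (median 1228) and from 245 to 1938 without (median 749.8). The ranges overlapped, with 2 of 21 cells with micronuclei above every other cell and 14 above the median of those without. On the log2 scale the ratio was 0.67, from 1286 CPM (1265 to 1307) with and 808 (792 to 824) without micronuclei. This value depended on the weighting, since it was 0.32 with equal weight per cell and 0.31 after scran scaling. In cells with micronuclei Anxa5 and Anxa1 were lower where the mitochondrial share of reads was higher (Spearman −0.66 and −0.52, n = 21). In cells without, the values were 0.17 for Anxa5 and −0.44 for Anxa1 (n = 14). That share had a median of 1.43% with micronuclei and 2.31% without, and its part in the ratios was not tested. Without the 6 cells that had fewer than 4000 genes or more than 9% mitochondrial reads, the log2 ratios were 0.59 for Anxa5 and 0.91 for Anxa1.

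Anxa6, a large annexin with a doubled core that binds cholesterol-rich membrane, was the lowest and most uneven member. It ranged from 0 to 1620.4 CPM (median 213) with micronuclei and from 0 to 562 (median 259.7) without. It reached 5 reads in 17 of 21 cells with micronuclei and in 10 of 14 without. The 4 cells without micronuclei that had 0 reads allow up to 2.11 to 52.8 CPM, and the 1 cell with micronuclei up to 14.7 CPM, counting 3 reads as the limit. Cell 6 had the highest level, while cell 13, a deeper library, held 32.7% of the reads with micronuclei. The log2 ratio was 0.21 in summed reads, −0.10 without cell 13 with micronuclei, −0.29 by median CPM and 0.95 by mean log2 level, so no direction can be given.

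Lgals1 encodes galectin-1, and it ranked 6 among all genes by summed reads over the 35 cells. It ranged from 3582 to 10173 CPM with micronuclei (median 6142) and from 5158 to 10024 without (median 6959). The upper ends coincided, while 7 of 21 cells with micronuclei lay below the lowest cell without. The summed level was 6047 CPM (6001 to 6093) with and 6792 (6745 to 6839.5) without micronuclei. The log2 ratio was −0.17, or −0.15 with equal weight, and ran from −0.26 to −0.10 over single leave-outs.

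Lgals3, for galectin-3, which gathers on sugars exposed by ruptured vesicles and is abundant in macrophages, had the largest ratio of the members. It ranged from 0 to 2310.1 CPM with micronuclei (median 493) and from 0 to 574 without (median 324). Above the highest cell without micronuclei lay 9 of 21 cells with them. At the low end were cell 6 with micronuclei (0 reads, up to 13.6 CPM allowed) and, without micronuclei, cell 1 (0 reads, up to 5.56 CPM) and cell 4 (3 reads, 1.98 CPM). The log2 ratio was 1.28 (1.00 with equal weight), from 719 CPM (703 to 735) with and 296 (287 to 306) without micronuclei. Leaving out single cells kept it between 1.08 and 1.39, but by median CPM it was 0.61 and by mean log2 level 1.61.

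The highest Lgals3 level was that of cell 10, the cell with the macrophage transcripts. Without cells 1, 4 and 10, the 3 cells in which at least 2 macrophage markers reached 5 reads, the Lgals3 log2 ratio was 1.07. Lgals3 was also higher in cells with more genes detected (Spearman 0.59, n = 35; 0.68 with micronuclei, 0.38 without), and the median number of genes was higher with micronuclei, as given above. Its part in the ratio was not tested beyond the following values. After thinning each library to 119337 reads, which left 17 and 13 cells, the ratio was 1.22. Among the 13 and 8 thinned cells with 5000 to 8000 genes it was 1.56.

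**Figure D2:**
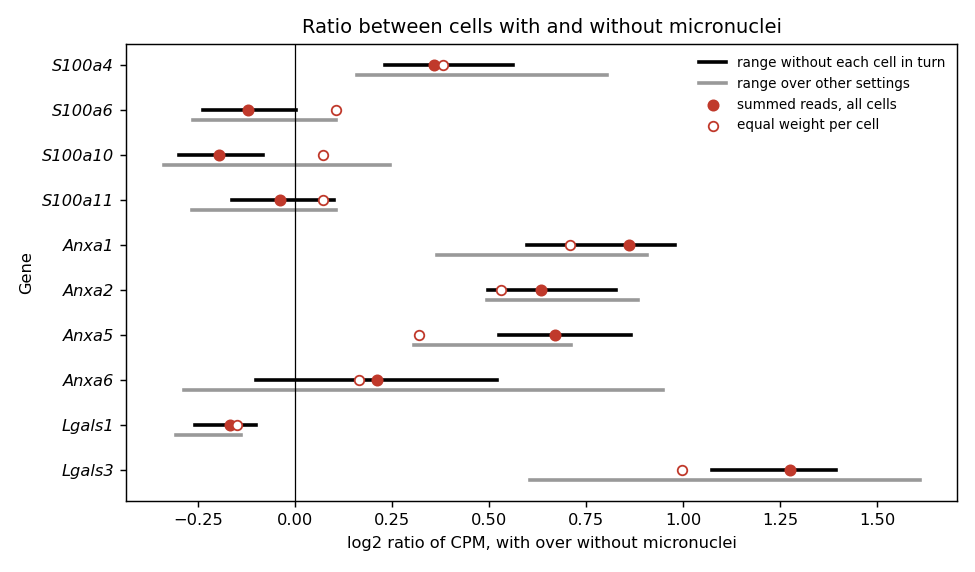
Log2 ratio of CPM in cells with over cells without micronuclei for each gene: filled points from summed reads, open points with equal weight per cell, black lines the range when each of the 35 cells is left out, grey lines the range over 12 other settings. Both lines stay right of 0 for S100a4, Anxa1, Anxa2, Anxa5 and Lgals3 and left of 0 for Lgals1, while those of S100a6, S100a11 and Anxa6 cross 0; for S100a10 the grey line crosses.

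Of the 10 genes 6 were higher in summed reads with micronuclei and 4 lower. Among all measured genes 56.0% were higher, and among the 922 measured genes with at least 200 CPM, a level all members reach, 47.2% were. The share over all measured genes ran from 46.1% by median CPM to 63.9% by mean log2 level. A rule of size asked for a summed log2 ratio of at least 0.5 in either direction, whose sign held with equal weight and in all 35 leave-outs. By it Anxa1, Anxa2, Anxa5 and Lgals3 were higher and none was lower. The same rule took 29.4% of measured genes as higher and 16.7% as lower, and 16.4% and 15.2% of those with at least 200 CPM. Within cells with micronuclei Anxa1, Anxa2, Anxa5 and Lgals3 rose with total reads (Spearman 0.44, 0.51, 0.41 and 0.51, in that order). Within cells without, the values were −0.02, −0.20, −0.38 and −0.01. After thinning their log2 ratios were 0.81, 0.68, 0.52 and 1.22, and the part of depth was not tested further. The median log2 ratio was 0.29 over the 10 genes (0.24 with equal weight), 0.15 over all measured genes (0.05) and −0.05 over those with at least 200 CPM (−0.05). With TMM scaling the medians were 0.14 for the 10 genes and 0.01 for all measured genes. Without the 6 cells of low quality they were 0.15 and 0.16. Among the members of each family the summed median was −0.08 for the 4 S100 genes, 0.65 for the 4 annexins and 0.55 for the 2 galectins. With equal weight it was 0.09, 0.42 and 0.42. The other measured genes of these families, described below, had summed medians of 0.28 (6 in the S100 list), −0.17 (4 annexins) and 0.43 (3 galectins). With equal weight these were −0.0094, 0.13 and 0.38.

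Spread from cell to cell was measured as the coefficient of variation (CV, the SD of CPM over its mean) within each group. Lgals1 was the most even member, with a CV of 0.29 with micronuclei and 0.21 without. Among genes with at least 200 CPM, only 0.325% and 0.217% had a lower CV, where the median gene had 0.64 and 0.67. With genes of at least 100 CPM the median was 0.77 and 0.84, so CV fell with level. The members ran from 248 CPM (Anxa6) to 6428 CPM (Lgals1) over all cells, so this background is not matched to the level of each. After Lgals1 came Anxa2 (0.37) and S100a11 (0.42) with micronuclei. Without micronuclei S100a6 came next, then S100a11 (0.45) and Anxa2 (0.48). S100a6 had a CV of 0.54 with micronuclei and 0.30 without. Cell 20, at 8155 CPM, bore on the former value, which was 0.42 at its lowest when cells were left out in turn. S100a10 (0.54 and 0.58), Anxa5 (0.51 and 0.59) and Anxa1 (0.62 and 0.51) lay below the median of genes with at least 200 CPM. S100a4 lay below it with micronuclei (0.59) and above it without (0.74, and 0.64 without cell 14). Lgals3 had 0.83 and 0.73, above 78.9% and 58.0% of genes with at least 200 CPM. Its lowest values over leave-outs were 0.57 with micronuclei, without cell 10, and 0.65 without micronuclei, without cell 1. The medians keep all cells, so leave-out values are not matched to them. Anxa6 (1.32 and 0.79) lay above the median, also at 0.88 with micronuclei without cell 6.

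**Figure D3:**
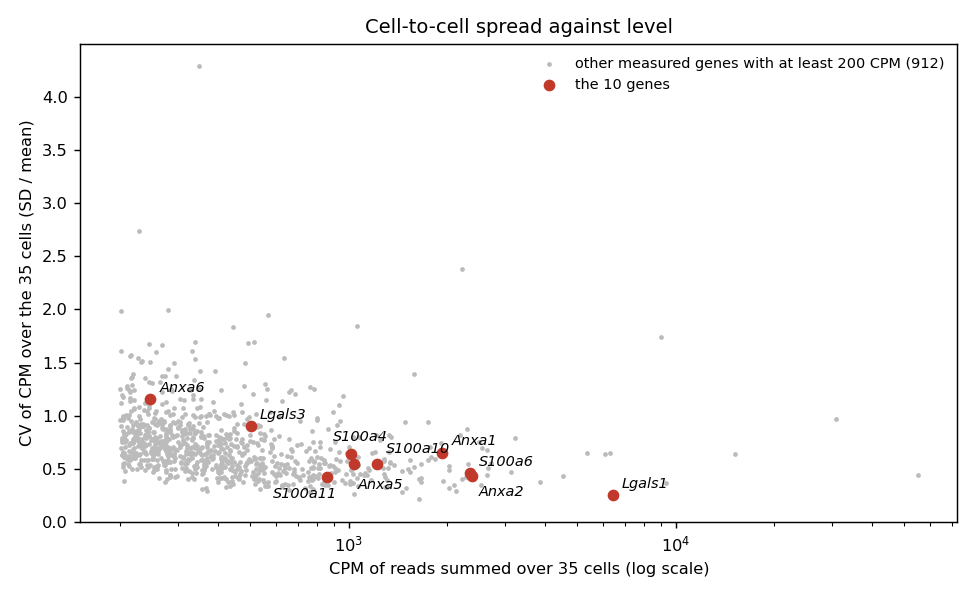
Coefficient of variation of CPM over the 35 cells against CPM of summed reads (log axis) for measured genes with at least 200 CPM (grey) and the 10 members (red). Lgals1 sits at the lower edge of the cloud, and Anxa6 and Lgals3 are the highest of the members.

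Across the 35 cells some members varied together, given here as Spearman correlations of CPM. These are descriptions, since the cells share scaling to a common total and differ in depth. The annexins Anxa1, Anxa2 and Anxa5 went together: 0.60 for Anxa1 with Anxa5, 0.59 for Anxa2 with Anxa5 and 0.58 for Anxa1 with Anxa2. Anxa6 was outside this set, at 0.35 with Anxa5, 0.23 with Anxa1 and −0.0042 with Anxa2. S100a6 and S100a11 had the highest value of all, 0.63. Only these 4 of the 45 pairs reached 0.5 (S100a11 with Lgals1 stood at 0.498), against 1.29% of the 424581 pairs of genes with at least 200 CPM. The median was 0.16 over the 45 pairs and 0.037 over those of the background.

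Within the groups, Anxa1 with Anxa2 gave 0.70 in cells with micronuclei and 0.13 in cells without, and Anxa1 with Anxa5 0.71 and 0.33; these differences were not tested. Anxa2 with Anxa5 gave 0.59 and 0.55, and S100a6 with S100a11 0.65 and 0.54. After thinning, which left 30 cells, the 4 pairs stood at 0.53, 0.62, 0.43 and 0.66 for Anxa1 with Anxa5, Anxa2 with Anxa5, Anxa1 with Anxa2 and S100a6 with S100a11. Of the partners by protein, S100a10 with Anxa2 gave 0.46 (0.30 with micronuclei, 0.63 without) and S100a11 with Anxa1 0.26. The galectins Lgals1 and Lgals3 had the lowest value, −0.28, from −0.39 with micronuclei and 0.16 without.

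**Figure D4:**
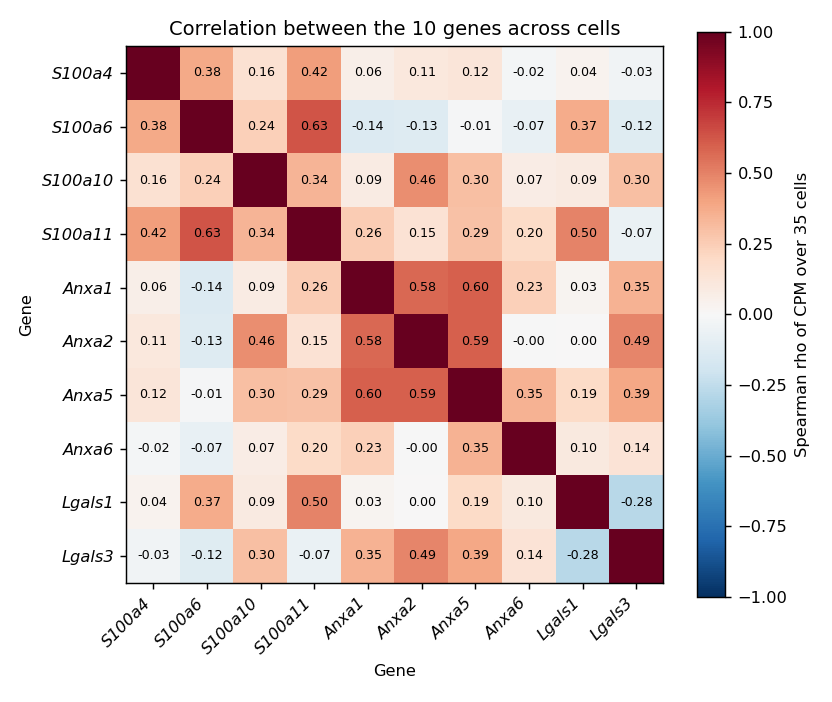
Spearman correlation of CPM over the 35 cells for each of the 45 pairs of the 10 genes (colour and printed value; the diagonal is each gene with itself). The block of Anxa1, Anxa2 and Anxa5 lies at 0.58 to 0.60 and S100a6 with S100a11 at 0.63.

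**Figure D5:**
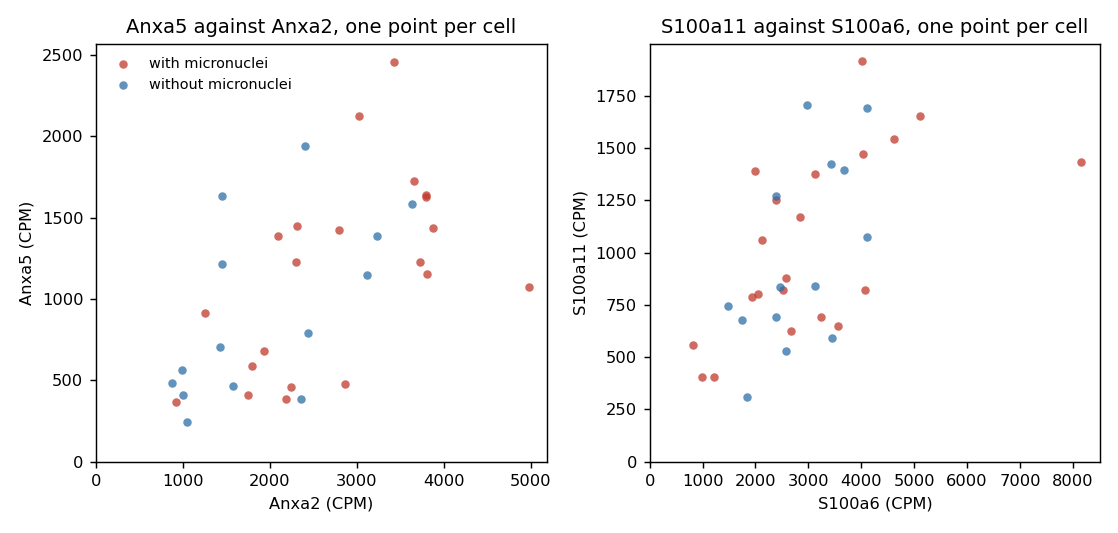
Anxa5 against Anxa2 (left) and S100a11 against S100a6 (right) in CPM, with a point for each cell, red with and blue without micronuclei. Cells high in the gene on one axis tend to be high in the other in both colours, and the cell at 8155 CPM of S100a6 lies apart.

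Ratios were also taken within each cell. Per kilobase of exon, S100a10 stood at a median of 1.53 times Anxa2 in cells with micronuclei (0.061 in cell 6 to 3.59) and 1.81 times in cells without (0.714 to 4.51). S100a11 stood at 2.76 times Anxa1 (0.958 to 10.4) and 4.4 times (1.17 to 18.3), or 1.59 and 2.53 times by the longest transcript. Lgals1 stood at 24.4 times Lgals3 in the 20 cells with micronuclei that had Lgals3 reads and at 44.2 times in the 13 such cells without. The lowest Lgals1 to Lgals3 ratio, 4.47, was that of cell 10. All 3 ratios had the lower median with micronuclei, and all overlapped.

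The genes, other members left out, whose levels followed each member most closely, among measured genes with at least 50 CPM over all cells, are given as Spearman correlations over 35 cells. Lgals1 had the closest, Elob at 0.82, a subunit of the elongin complex, followed by Mrpl52 at 0.67. Lgals3 went with Wrb at 0.76, a receptor for tail-anchored proteins of the endoplasmic reticulum, and with Cmtm3 at 0.70. S100a6 went with the ribosomal protein genes Rps24 (0.74) and Rps10 (0.69). Anxa2 went with the cytoskeletal genes Tuba1a (0.73) and Cfl1 (0.68), Anxa1 with the calponin Cnn2 (0.65) and with Rassf1 (0.64), Anxa5 with Ehd2 (0.67) and Lxn (0.64), and Anxa6 with the smooth muscle actin Acta2 (0.64) and Rabgap1 (0.60). S100a10 went with Traf7 (0.68) and Gsto1 (0.65), S100a11 with Psmb5 (0.67) and Fkbp9 (0.66), and S100a4 with Rnf11 (0.64) and Maea (0.58). Each was picked as the highest of many, and the values say nothing about other cells. They pool both groups. Some were lower in cells without micronuclei, such as Lgals1 with Mrpl52 (0.81 with, 0.41 without) and Anxa2 with Cfl1 (0.65 and 0.30). Others were lower in cells with micronuclei, such as Anxa6 with Rabgap1 (0.48 and 0.80) and S100a4 with Maea (0.37 and 0.75). The part of the group difference in these correlations was not tested.

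Of 30 further genes listed with these families, 20 were in the table, 13 were measured and 10 were not analysed here. Among the 13, 8 were higher and 5 lower with micronuclei, with a median log2 ratio of 0.25 (0.16 with equal weight) beside 0.15 for all measured genes. Against their 8 of 13, 56.0% of all measured genes were higher. By the rule of size, which took 29.4% of all measured genes as higher and 16.7% as lower, S100a16 and Lgals8 were higher and S100pbp, which encodes a protein that binds an S100 and is no S100 itself, was lower. S100a16 stood at 71.4 against 11.5 CPM (log2 ratio 2.54, 1.24 with equal weight) and reached 5 reads in 10 of 21 cells with and 4 of 14 without micronuclei. Lgals8, for a galectin that marks ruptured vesicles, stood at 39.3 against 8.61 CPM (2.07), and at 1.34 on the log2 scale without cell 21 with micronuclei. Lgals8 exons overlap those of Heatr1 on the opposite strand over 155 bases. S100pbp stood at 16.7 against 37.8 CPM (−1.13), and its log2 ratio was −1.98 without cell 14 with micronuclei and −0.41 and −0.75 without cell 8 or cell 11 of the other group.

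The most abundant of these relatives was Anxa3, at 725 CPM with micronuclei and 949 without, a log2 ratio of −0.39 (−0.25 with equal weight) where Anxa1, Anxa2 and Anxa5 were higher. Over leave-outs it ran from −0.54 to −0.17, the latter without cell 4 without micronuclei. Lgals9 stood at 146 and 108 CPM, with a log2 ratio of 0.43 (0.38 with equal weight) that was 0.10 without cell 11 with micronuclei and 0.79 without cell 8 of the others. S100a13 stood at 88.1 and 66.2 CPM, with 0.41 (0.16 with equal weight) and a range of 0.13, without cell 7 without micronuclei, to 0.85, without cell 8 of that group. Anxa4 was at 0.46 (0.10 with equal weight), with 0.036 without cell 13 with micronuclei and 0.95 without cell 5 of the others. For 6 measured relatives single leave-outs turned the sign, so no direction can be given. These were S100a1 (0.25 summed, −0.18 with equal weight), S100a3 (−0.06 and −0.21), S100a7a (0.32 and 0.47), Anxa7 (0.04 and 0.37), Anxa8 (−0.58 and 0.16) and Lgalsl (−0.33 and 0.06). Without cell 13 with micronuclei the ratios of S100a1, S100a7a and Anxa7 were −0.33, −0.21 and −0.17. Without cell 4 without micronuclei those of S100a3, Anxa8 and Lgalsl were 0.85, 1.16 and 0.50. S100a8, a gene of neutrophils and monocytes, had 0 reads, which allows up to 0.271 CPM with and 0.258 without micronuclei. S100b, of glial cells, had 3 reads, S100a5 had 4, Anxa9 13, Anxa10 2 and Anxa11 1. Lgals4 had 55 reads, 92.7% of them in cell 21 with micronuclei.

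A further list held 37 genes for partners of these proteins and for other proteins that bind calcium, of which 29 were measured. Of them 14 were higher and 15 lower with micronuclei, 8 and 6 by the rule of size, beside 56.0% higher among all measured genes and 29.4% and 16.7% by the rule. The median log2 ratio of the list was −0.02 (−0.03 with equal weight). Cd44, a hyaluronan receptor whose sugars galectins bind, had a per-cell median of 1309 CPM with micronuclei and 2999.7 without. Its summed level was 2021 against 4397 CPM (log2 ratio −1.12, −1.09 with equal weight). The integrin subunit gene Itgb1, also a galectin ligand, stood at 930.1 against 1804 CPM (−0.96, and −0.57 when cell 7 without micronuclei was left out). Lgals3bp, a secreted ligand of galectin-3, stood at 62.2 against 19.7 CPM (1.61, 0.93 with equal weight). Its ratio was 0.98 without cell 7 with micronuclei and 3.15 without cell 6 of the other group.

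Among partners of the S100 proteins and annexins, Plau, the urokinase whose product plasmin S100A10 and annexin A2 help to form, stood at 78.0 against 17.1 CPM (2.12, 1.38 with equal weight). Its per-cell medians went the other way, 3.81 CPM with and 10.1 without micronuclei, and it reached 5 reads in 6 of 21 cells with and 7 of 14 without. Pef1, an EF-hand protein of the list that is not put forward as a partner of a member, stood at 128 against 44.4 CPM. Its ratio was 1.5 on the log2 scale, and 0.87 without cell 11 with micronuclei. Sugt1, a chaperone adaptor bound by S100A6, stood at 128 against 59.7 CPM (1.09). Cacybp, which also binds S100A6, went the other way at 227 against 407 CPM (−0.84). Its ratio was −0.49 with equal weight and −0.39 without cell 8 without micronuclei. Cacybp lies outside the 6 partners with the largest stable ratios and was named after its values were seen.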

How the data were processed

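The authors deposited whole-number read counts per gene, not normalized, for 19147 features, 62 of them ERCC spike-ins, which stayed out of all totals. STAR was the aligner and GRCm38.p5 the build, per the submitters' processing notes. Reads were counted with Rsubread and cells filtered with scater on ERCC share (10%), genes (2000) and counts (40000), per the deposited phenotype table. Of versions and strand settings the record is "not given in the sources used here". Overlapping genes may therefore share reads. All 35 cells were used, and 0 columns of other samples were present. No doublet caller was run on 35 cells picked by eye, and batches are not named.

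From the counts, CPM, summed CPM, log2 ratios (1 CPM added), CV and Spearman correlations were computed with Python 3.11.15, numpy 2.4.6, pandas 2.3.3 and scipy 1.17.1, and plots with matplotlib 3.10.9. R 4.3.3 with edgeR 4.0.16 gave TMM factors (1.05 and 0.952) and scran 1.30.0 size factors. The ratio script was tested on simulated Poisson counts with no spread between cells beyond counting. That checks the arithmetic only and does not bear on how reliable the ratios of these cells are. With 1 sample a group, no test across genes was possible. Copies of members were sought by sequence match of at least 90% over 100 bases.

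The members and lists were chosen with earlier results of these data known. All members and measured relatives are named, with the 6 partners of largest stable ratio and the 2 genes closest to each member. Alternatives were equal weights, mean log2 and median CPM, TMM and scran scaling, totals without mitochondrial reads, 0.1 or 5 CPM added, thinning, 2 sets of cells left out, and each cell left out. Cells of 5000 to 8000 genes after thinning, and the background of genes with at least 200 CPM, were chosen after seeing the data.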

Additional observations from a re-analysis of the deposited data

How the results depend on the processing

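Over 12 other settings and 35 leave-outs of a cell, S100a4, Anxa1, Anxa2, Anxa5 and Lgals3 were higher with micronuclei each time and Lgals1 lower; S100a6, S100a11 and Anxa6 changed sign in both kinds of check, and S100a10 only over settings. The count of members higher was 5 to 9 over settings. The median log2 ratio of the members was 0.14 with TMM factors, beside 0.01 for all measured genes. Without 6 cells of low quality it was 0.15 beside 0.16, and among thinned cells of 5000 to 8000 genes 0.026 beside 0.037. In both of these settings the members did not stand above all measured genes. When cells were left out in turn the members' median ran from 0.13 to 0.41. It was 0.13 without cell 8 without micronuclei and 0.18 without cell 6 with them, and the cause was not tested. The share of measured genes that were higher, 56.0% in summed reads, ran from 46.1% by median CPM to 63.9% by mean log2 level, and their median log2 ratio from 0 to 0.30 by those 2 settings. No paired analysis was possible because the labels give no replicate numbers. Cells with 0 reads allow 2.11 to 52.8 CPM of Anxa6 and 5.56 to 13.6 CPM of Lgals3, depending on their depth.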
